A study of Mus musculus with 16 samples.

Results

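The respiratory chain genes described here are the nuclear genes for subunits of the 5 complexes of oxidative phosphorylation, together with a few assembly factors that carry the same symbol prefixes. Members were taken by symbol (starting with Nduf, Sdha, Sdhb, Sdhc, Sdhd, Uqcr, Cox4i, Cox5, Cox6, Cox7, Cox8 or Atp5, without the muscle isoform Cox6a2 and without pseudogene-type symbols), and kept at a mean of at least 5 CPM (counts scaled to a common library total) over all libraries. Of 24028 rows in the table, 95 matched the symbols and 88 were kept. These were 36 subunits of complex I, 4 of complex II, 8 of complex III, 12 of complex IV, 15 of complex V and 13 assembly factors. Just under the minimum lay Cox7b2 (4.27 CPM), Cox6b2 (3.33 CPM) and Cox7a1 (1.6 CPM), and just above it Sdhaf3 (7.85 CPM), Atp5s (10.6 CPM) and Ndufaf2 (10.7 CPM). All 88 also passed the filter on low counts, and no member was at 0 in any library.

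RNA was sequenced from CD8 T cells sorted out of tumours in BALB/c mice that carried TS/A cells, a mouse mammary adenocarcinoma line, in the mammary fat pad. The sort took live cells positive for CD45.2 and CD8 and negative for CD4. Mice received entinostat, which inhibits class I histone deacetylases, at 20 mg/kg daily from day 7, or its vehicle, and tumours were taken at day 10 or day 17. Each of the 4 groups (vehicle day 10, entinostat day 10, vehicle day 17, entinostat day 17) had 4 libraries, so that treatment of 3 days could be set against treatment of 10 days. All mice carried the tumour, and the labels are silent on whether each library is a different animal. The p-values therefore measure the spread between libraries, part of which may be technical. In bulk RNA, fewer cells of a type and less RNA per cell cannot be told apart.

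The respiratory chain passes electrons from NADH (through complex I) and from succinate (through complex II) by way of ubiquinone to complex III, then by cytochrome c to complex IV, which reduces oxygen. The proton gradient built by complexes I, III and IV drives ATP synthesis by complex V. Most subunits are encoded in the nucleus and a few core subunits of complexes I, III, IV and V in the mitochondrial genome, which had no row in the table. T cells enlarge their mitochondrial mass on activation, and CD8 T cells that infiltrate tumours are known for reduced mitochondrial function.

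Promoter sequence was read from RefSeq windows (GRCm38.p6) that run from 250 bases before the start of a gene to just after it. Of the 88 members, 76 had an entry, with 82 windows. The windows were searched on both strands for 3 motifs of factors long linked to respiratory genes: GCGCA and GCGC with any 1 base between them for NRF1, CCGGAAG for ETS factors such as GABP, and AAGATGG for YY1. The NRF1 motif was in 26.8% of the members' windows and in 4.6% of all 32851 windows, the ETS motif in 24.4% against 8.86%, and the YY1 motif in 15.9% against 6.34%. At least one of them was in 58.5% of the members' windows and in 18% of all windows. CpG dinucleotides were also more frequent, with a median of 20 per window against 7. The set of all windows was not matched to the members in expression or CpG content. The NRF1 and ETS motifs contain CpG themselves, and the part of CpG content in these differences was not tested. Of the 12 members that passed the test in some comparison below, the matches of 3 are shown because they cover all 3 motifs. Atp5g1 and Cox5a, also among the 12, had none of the 3 motifs in their windows. Capitals mark the motif, each line is on the strand of the gene, and a match is a description of letters, not a bound site. Atp5c1 and Atp5j have 2 windows each, for different starts. Their matches lie in the window of the start further inside the gene, and the window at the outer start held none of the 3 motifs.
Sdhd, NRF1, chr9:50603909-50603938: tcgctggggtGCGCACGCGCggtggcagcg
Sdhd, ETS as its reverse complement, chr9:50603878-50603906: ccgtctcctgcCTTCCGGttcacgcttca
Atp5c1, NRF1, chr2:10080433-10080459: ctgagctcccGCGCACGCGCactgagt
Atp5j, YY1, chr16:84835047-84835075: aaagtgtaggaAAGATGGcggagtcttag
Atp5j, ETS, chr16:84835020-84835048: agctgagggacCCGGAAGcacttaccctc

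The libraries differed in depth, from 554593 counts in entinostat day 17 replicate 3 to 6975904 in vehicle day 17 replicate 1, a ratio of 12.6. The summed counts of the members differed by 9.26 times between these libraries, from 5331 to 49363. Atp5b, the catalytic beta subunit of ATP synthase and the member with the highest level, differed by only 4.46 times, from 503 to 2245 counts. Counts of this abundant gene therefore did not scale with the total. The 5 of 6 CD8 T cell markers in the table summed to 1230 to 2750 CPM. They averaged 1560 CPM in vehicle and 1510 CPM in entinostat at day 10, and 1440 and 2020 CPM at day 17. Their median log2 fold change with entinostat was -0.18 at day 10, with 5 below 0, and 0.33 at day 17, with 0 below 0. Over time it was -0.29 in vehicle and 0.31 with entinostat, where 1 was called higher. The 5 markers of plasmacytoid dendritic cells summed to 841 to 2000 CPM in vehicle and 374 to 686 CPM in entinostat libraries. The 6 markers of macrophages and monocytes averaged 141 CPM in vehicle and 57.4 CPM in entinostat at day 10, and 222 and 65.1 CPM at day 17. These markers did not all move alike. Of the 5 that were tested, 3 had a log2 fold change below 0 at each day. At day 10, 1 was called higher and 2 lower, and at day 17, 0 higher and 2 lower. The 2 CD4 T cell markers averaged 55.7 and 20.9 CPM at day 10, and 101 and 41.4 CPM at day 17. The 3 neutrophil markers averaged 1.26 and 35.7 CPM at day 10, and 8.22 and 35.7 CPM at day 17. For the 3 B cell markers these were 5.39 and 30.7 CPM, and 16.3 and 41.2 CPM, with 1 of the 3 below 0 at day 10. The 4 fibroblast markers averaged 59.2 and 102 CPM at day 10, and 563 and 218 CPM at day 17. They ran from 112 to 1440 CPM within vehicle day 17, and 2 were called higher in vehicle over time. At day 17, 1 was called lower with entinostat. The 3 endothelium markers averaged 194 and 138 CPM at day 10, with 1 called lower, and 199 and 130 CPM at day 17, with 2 called lower. Reads in receptor genes for smell and pheromones, not known to be used in T cells, ran from 582.1 to 6901 CPM and had higher group means under entinostat than under vehicle at both days. The part of these differences in the results below was not tested except where a value with receptor reads or total counts as a covariate is given.

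Per length of transcript, the members ranged from 1.82 CPM per kilobase (Sdhaf3) to 242 (Atp5b). The median of the mean level was 70.9 CPM per kilobase for complex I, 102 for complex II, 123 for complex III, 150 for complex IV and 129 for complex V, and 18.1 for the assembly factors. Cox4i1, a nuclear regulatory subunit of complex IV, was at 205 CPM per kilobase, and the subunits of complex I alone ran from 17.8 to 158. Together the members took 0.690% to 0.961% of all counts in a library. The share was 0.733% ± 0.0161 (SD, n = 4) in vehicle day 10, 0.705% ± 0.0141 in entinostat day 10, 0.757% ± 0.0376 in vehicle day 17 and 0.871% ± 0.0644 in entinostat day 17.

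**Figure D1:**
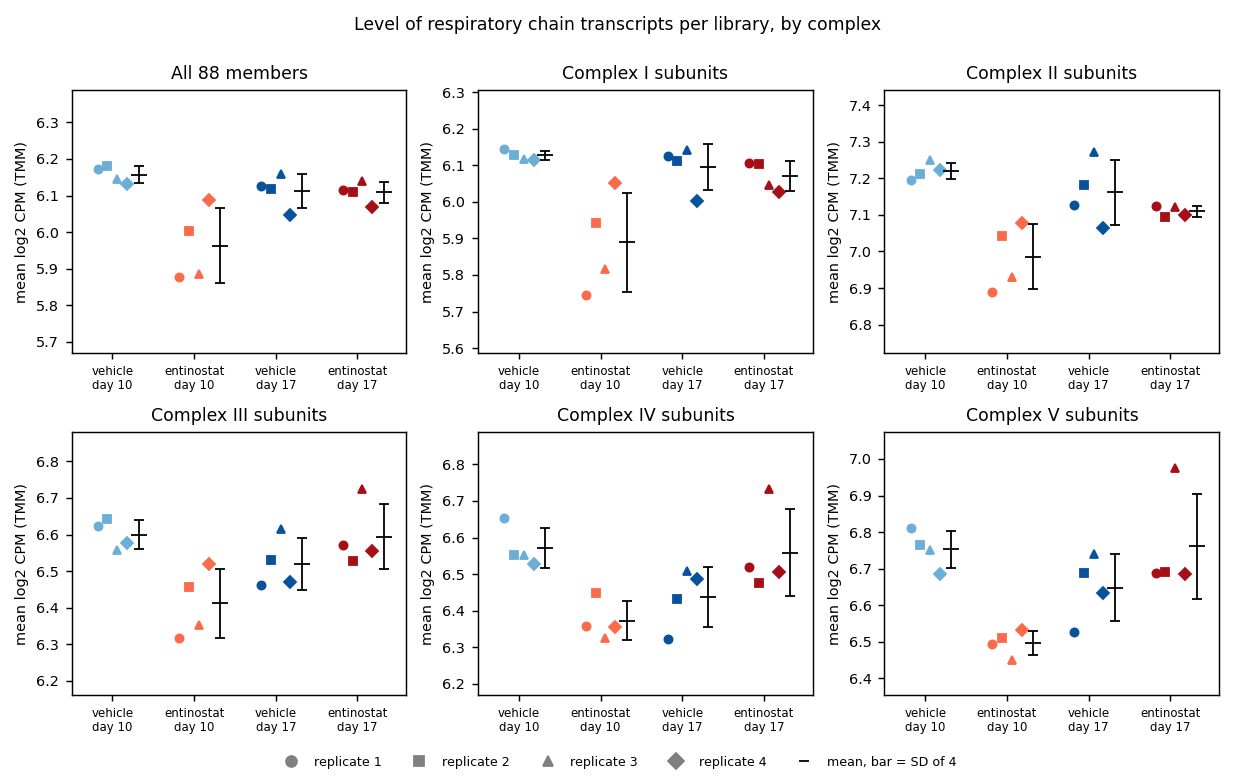
Mean log2 CPM (y axis, TMM scaled) of all 88 members and of the subunits of each complex in every library, with the mean and SD of the 4 libraries in each group beside them. The entinostat day 10 libraries lie below the vehicle day 10 libraries in all 6 panels, and the shallowest library, entinostat day 17 replicate 3, stands above its group for complexes III, IV and V.

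At day 10, after 3 days of dosing, respiratory chain transcripts were lower with entinostat on the TMM scale. The mean log2 CPM of the members was 6.17, 6.18, 6.14 and 6.13 in the vehicle libraries and 5.88, 6.0, 5.88 and 6.09 in the entinostat libraries. The groups did not overlap. The median log2 fold change of the members was -0.21, with 82 of 88 below 0 and all 75 subunits below 0, while the median over the 17414 genes tested was 0.06 and over the 13324 of at least 5 CPM -0.09. The size of this shift depended on the scaling, and with library size alone the members' median was -0.05 and that of all genes 0.22. Genes of at least 5 CPM had a median of 0.07 in that setting. With cyclic loess the members' median was -0.03 and that of genes of at least 5 CPM 0.0056. In entinostat day 10, members were lowest in the libraries with most receptor reads (5722, 5175 and 3365 CPM in replicates 1, 3 and 2) and highest in replicate 4 with 585.9 CPM. Total counts rose in the same order (2639019, 3153308, 3887536 and 5709243 in replicates 1, 3, 2 and 4). Depth and receptor reads therefore cannot be told apart in this group. With receptor reads as a covariate the median was -0.19, and with log2 total counts as a covariate -0.22. The part of the marker differences given above in this shift was not tested.

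The shift was of like size in each complex. The median log2 fold change at day 10 was -0.22 for complex I, -0.23 for complex II, -0.19 for complex III, -0.20 for complex IV and -0.23 for complex V. The assembly factors had a median of -0.02, with 6 of 13 above 0. For 39 members, all subunits, every entinostat library was below every vehicle library, against 12.4% of all genes tested; these were 15 subunits of complex I, 2 of complex II, 3 of complex III, 7 of complex IV and 12 of complex V. With library size alone only 6 members were separated in this way, against 4.93% of all genes tested.

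By edgeR's quasi-likelihood test with Benjamini-Hochberg adjustment over all genes, 5 members fell and none rose at day 10. Among all genes tested 14.6% were called, 6.93% lower and 7.63% higher, so the share of members called lower, 5.68%, was near the background. A further 25 members had an unadjusted p under 0.05, all lower, making 30 in all. Of the 17414 genes tested, 2588 were lower and 3239 higher at that level. The number called lower ran from 0 with library size alone, with cyclic loess or with a replicate block within each day to 35 with limma-voom and sample quality weights together. Over all genes tested, these settings called 504, 450 and 742 lower where members had 0, and 3170 where members had 35. Leaving out libraries gave 0 to 9, the latter when entinostat day 10 replicate 4 was dropped. All genes called lower numbered 1514 there and 536 without vehicle day 10 replicate 1. None was called when vehicle day 10 replicate 1 was dropped, where the adjusted p of the 5 members lay between 0.063 (Atp5g1) and 0.144 (Ndufs7).

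In complex I, the called members were Ndufs8 and Ndufs7, iron-sulphur core subunits that carry electrons towards ubiquinone. Ndufs8 (chr19:3908863-3912774, minus strand, GRCm38.p6) had 95.6, 83.0, 92.9 and 96.8 CPM in vehicle and 60.2, 74.7, 57.7 and 74.0 CPM in entinostat at day 10. The groups did not overlap, and the log2 fold change was -0.46 ± 0.12 (SE, adjusted p = 0.0234). Ndufs7 (chr10:80249105-80256794) had 97.8, 95.7, 87.95 and 96.0 CPM in vehicle and 66.9, 78.3, 71.5 and 84.4 CPM in entinostat, a log2 fold change of -0.32 ± 0.11 (adjusted p = 0.0482). The 29 accessory subunits were also all below 0, with a median of -0.21. The call for Ndufs7 was lost in 26 of 29 alternatives and that for Ndufs8 in 10 of 29.

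In complex II, the called member was Sdhb, the iron-sulphur subunit of succinate dehydrogenase, which also links the chain to the tricarboxylic acid cycle. Sdhb (chr4:140961271-140979198) had 148.5, 145.4, 147.5 and 142.2 CPM in vehicle and 119.7, 117.6, 114.7 and 117.8 CPM in entinostat at day 10. Both groups were tight and did not overlap, and the log2 fold change was -0.31 ± 0.08 (adjusted p = 0.0200). Sdha, its flavoprotein partner, had a log2 fold change of -0.27 ± 0.10 (adjusted p = 0.0745). The call for Sdhb was lost in 10 of 29 alternatives, with library size alone among them (log2 fold change -0.15, adjusted p = 0.186).

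Complexes III and IV had no called member at day 10. The smallest p in complex III was that of Uqcrc2, a core protein, at -0.29 ± 0.10 (adjusted p = 0.0586). In complex IV it was that of Cox7a2l, at -0.34 ± 0.12 (adjusted p = 0.0603). Cox7a2l had 95.9, 99.0, 93.2 and 88.1 CPM in vehicle and 72.9, 81.1, 67.8 and 76.0 CPM in entinostat, with no overlap.

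In complex V, Atp5g1 and Atp5c1 fell. Atp5g1 (chr11:96072793-96075694) is one of 3 genes that encode the same c subunit of the membrane ring, with different import sequences. It had 62.6, 57.5, 52.8 and 55.7 CPM in vehicle and 35.7, 38.9, 37.9 and 43.8 CPM in entinostat at day 10, a log2 fold change of -0.55 ± 0.13 (adjusted p = 0.0141). This was the lowest fold change of any member in that comparison, and the call was lost in 5 of 29 alternatives. Atp5c1 (chr2:10056030-10080510), the gamma subunit of the central stalk, had 225.8, 210.7, 206.7 and 202.1 CPM in vehicle and 164.3, 169.9, 163.1 and 171.8 CPM in entinostat. Its groups did not overlap, its log2 fold change was -0.34 ± 0.08 (adjusted p = 0.0175), and its call was lost in 9 of 29 alternatives.

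The c subunit genes were looked at together after their values were seen. Atp5g1 made up 25.8% ± 1.08 (SD, n = 4) of the summed CPM of Atp5g1, Atp5g2 and Atp5g3 in vehicle day 10 and 22.0% ± 1.11 in entinostat day 10. At day 17 its share was 25.4% ± 1.16 in vehicle and 22.4% ± 1.01 in entinostat. The ranges of vehicle and entinostat did not overlap at either day (24.4% to 27.0% against 20.5% to 23.2%, and 23.9% to 26.5% against 21.0% to 23.4%). Such a share does not depend on scaling between libraries, but it is not per length, so it compares groups and not genes. At day 17 Atp5g1 itself averaged 51.7 CPM in vehicle and 50.2 CPM in entinostat. Atp5g3 averaged 120.7 and 148.5 CPM, with 192.4 CPM in the shallowest library, and Atp5g2 31.2 and 26.2 CPM. The lower share of Atp5g1 at day 17 therefore went with a higher level of Atp5g3 and a like level of Atp5g1.

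**Figure D2:**
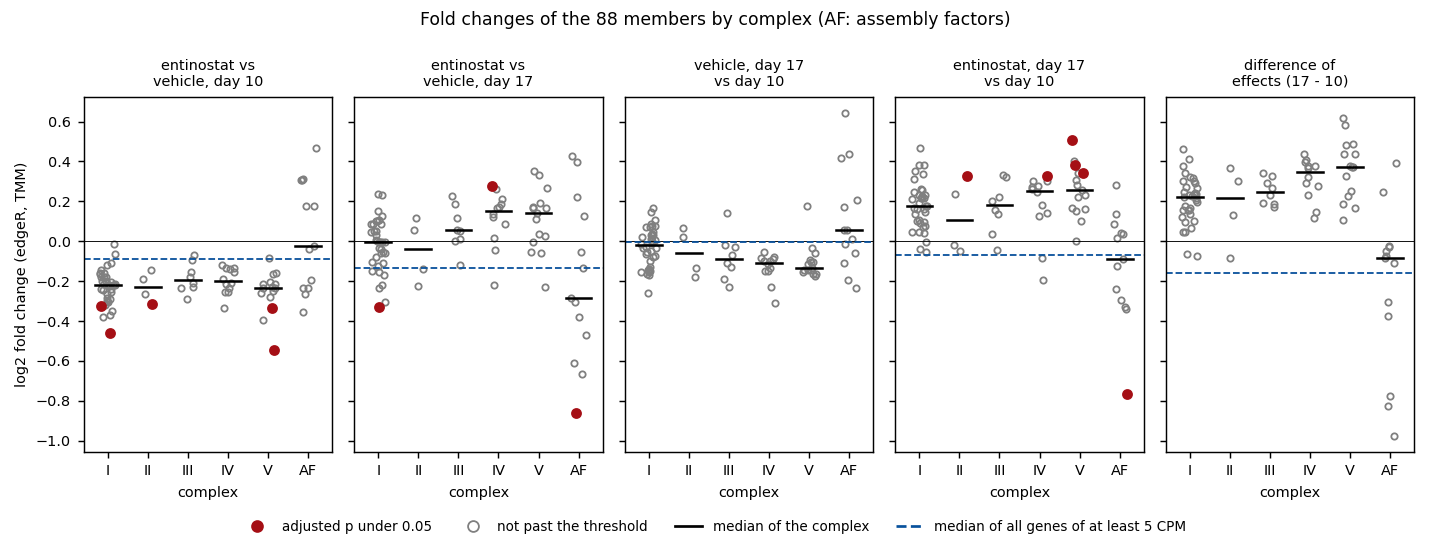
Log2 fold change (y axis) of each member in the 5 comparisons, by complex (x axis; AF, assembly factors), with called members filled, the median of each complex as a black bar and the median of all genes of at least 5 CPM as a dashed line. All 75 subunits lie below 0 at day 10, and 67 of 75 lie above 0 between day 10 and day 17 with entinostat.

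At day 17, after 10 days of dosing, the members as a whole differed little between entinostat and vehicle on the TMM scale. The mean log2 CPM of the members was 6.13, 6.12, 6.16 and 6.05 in vehicle and 6.12, 6.11, 6.14 and 6.07 in entinostat, and the groups overlapped. The median log2 fold change was 0.03, with 49 of 88 above 0, against -0.13 for all genes of at least 5 CPM. With library size alone it was 0.18, and with no filter on low counts -0.02. By complex the medians were 0.00 for complex I, -0.04 for complex II, 0.05 for complex III, 0.15 for complex IV and 0.14 for complex V, and -0.28 for the assembly factors.

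At day 17, 1 member rose and 2 fell, where 18.3% of all genes tested were called, 5.29% higher and 13% lower. Cox5a (chr9:57517328-57532427), a nuclear subunit of complex IV on the matrix side, had 96.1, 108.5, 105.5 and 113.2 CPM in vehicle and 129.9, 132.7, 132.7 and 117.4 CPM in entinostat. The groups did not overlap, and the log2 fold change was 0.27 ± 0.09 (adjusted p = 0.0393). Ndufa6 (chr15:82350139-82354291), an accessory subunit of complex I, had 69.5, 77.6, 77.5 and 77.9 CPM in vehicle and 60.5, 63.0, 64.7 and 53.6 CPM in entinostat, a log2 fold change of -0.33 ± 0.11 (adjusted p = 0.0427). Atp5sl (chr7:25619414-25625550), a complex I assembly factor despite its symbol, had 77.6, 45.5, 61.0 and 62.8 CPM in vehicle and 37.3, 50.6, 24.9 and 19.3 CPM in entinostat. One entinostat library lay above the lowest vehicle library, and the log2 fold change was -0.86 ± 0.24 (adjusted p = 0.0182). In complex II the smallest p was that of Sdhaf1, an assembly factor (-0.61 ± 0.28, adjusted p = 0.138). The calls were lost in 12 of 29 alternatives for Cox5a, 24 for Ndufa6 and 6 for Atp5sl. Without the deepest library, vehicle day 17 replicate 1, none of the 3 passed (adjusted p = 0.0811, 0.0732 and 0.0798). The number of members called higher ran from 0 to 23 over the alternatives. The 23 came with cyclic loess, where 1193 of all genes tested were called higher, against 922 in the fit reported.

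In vehicle, between day 10 and day 17, no member was called in edgeR, where 5.52% of all genes tested were called, 1.89% higher and 3.63% lower. At an unadjusted p under 0.05 there were 4 members, all lower, where 2057 of the 17414 genes tested were lower and 2425 higher. DESeq2 called no member either. The median was -0.07 on the TMM scale and 0.06 with library size alone, so the direction depended on the scaling. The smallest p in complex I was that of Ndufs1, the large iron-sulphur subunit, at -0.26 ± 0.09 (adjusted p = 0.0931). In the other complexes it was that of Sdha (-0.18 ± 0.10), Uqcrh, the hinge protein (-0.23 ± 0.09), Cox7a2l (-0.31 ± 0.12) and Atp5c1 (-0.15 ± 0.08), and with cyclic loess Sdha and Atp5c1 were above 0.

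With entinostat, respiratory chain transcripts were higher at day 17 than at day 10. The median log2 fold change was 0.17, with 73 of 88 members above 0, against -0.07 for all genes of at least 5 CPM. It stayed above 0 in each alternative run, from 0.14 with no filter on low counts to 0.34 with cyclic loess. Complex IV (0.25) and complex V (0.26) had the higher medians, complexes I and III had 0.18 each, and complex II had 0.11. In 22 members all day 17 libraries were above all day 10 libraries, against 8.94% of all genes tested. In none were all of them below, against 12.5% of all genes tested.

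Here 5 members rose and 1 fell, where 13.7% of all genes tested were called, 3.26% higher and 10.5% lower. Of the 5, 3 belong to complex V. Atp5j (chr16:84827871-84835857), coupling factor 6 of the peripheral stalk, had 79.2, 78.0, 82.3 and 77.4 CPM at day 10 and 102.9, 97.5, 162.6 and 102.4 CPM at day 17. The groups did not overlap, the highest value came from the shallowest library, and the log2 fold change was 0.51 ± 0.13 (adjusted p = 0.0154). With log2 total counts as a covariate it was 0.30 (adjusted p = 0.0567). Exons of Atp5j overlap Gabpa on the opposite strand, and the library kit does not mark strand, so their reads cannot be told apart.

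Atp5g3 (chr2:73908447-73912464), another c subunit gene, had 111.2, 110.7, 107.9 and 116.3 CPM at day 10 and 134.1, 134.9, 192.4 and 132.6 CPM at day 17 with entinostat. The log2 fold change was 0.38 ± 0.11 (adjusted p = 0.0292), and without entinostat day 17 replicate 3 it was 0.25 (adjusted p = 0.0751). Atp5o (chr16:91925223-91931630), the subunit that confers oligomycin sensitivity, had 74.7, 81.4, 69.7 and 83.8 CPM at day 10 and 89.1, 99.9, 101.2 and 103.8 CPM at day 17, a log2 fold change of 0.34 ± 0.10 (adjusted p = 0.0303). Antisense genes overlap its exons too.

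Cox5a rose from 100, 108.6, 102.4 and 97.2 CPM to 129.9, 132.7, 132.7 and 117.4 CPM, a log2 fold change of 0.33 ± 0.09 (adjusted p = 0.0203), and Sdhd (chr9:50596340-50603849), a membrane anchor of complex II, from 99.7, 120.2, 97.1 and 116.3 CPM to 145.0, 125.7, 151.0 and 126.9 CPM (0.33 ± 0.10, adjusted p = 0.0363). In both, all day 17 libraries were above all day 10 libraries. In the complexes without a call, the smallest p was that of Ndufa10 in complex I (0.38 ± 0.13, adjusted p = 0.0653) and Uqcrb in complex III (0.32 ± 0.12, adjusted p = 0.0873). Atp5sl fell, by 0.77 ± 0.24 on the log2 scale (adjusted p = 0.0387). The calls were lost in 2 of 28 alternatives for Atp5j, 5 for Cox5a, 8 for Atp5g3, 11 for Atp5sl, 12 for Atp5o and 14 for Sdhd. The number of members called higher was 2 without the shallowest library, 1 without entinostat day 10 replicate 1, and up to 36 at a minimum count of 50. Over all genes tested these settings called 413, 385 and 907 higher, against 568 in the fit reported.

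Subunits of core role that passed no test are given by their values. In complex I at day 10, Ndufs3 was at -0.35 ± 0.14 (log2 fold change ± SE), Ndufv1, which binds NADH, at -0.22 ± 0.12 and Ndufv2 at -0.24 ± 0.10, and at day 17 these were -0.11, -0.17 and -0.01. Uqcrc1, a core protein of complex III, averaged 239.5 CPM in vehicle and 206.8 CPM in entinostat at day 10, and 222.5 and 234.2 CPM at day 17. Uqcrfs1, the Rieske iron-sulphur protein, was at -0.10 ± 0.09 at day 10 and 0.23 ± 0.10 at day 17 (adjusted p = 0.100).

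In complex IV, 7 further nuclear subunits (Cox4i1, Cox5b, Cox6a1, Cox6b1, Cox7a2, Cox8a and Ndufa4, which was named for complex I and is now placed in complex IV) were below 0 at day 10, from -0.26 (Cox5b) to -0.12 (Cox6a1). At day 17, 6 of them were above 0, up to 0.26 ± 0.12 for Cox7a2 (adjusted p = 0.126), and Ndufa4 was at -0.04. In complex V, Atp5a1, the alpha subunit, averaged 438.3 and 378.2 CPM at day 10 and 391.7 and 426.6 CPM at day 17, vehicle first. Atp5b had 506.9, 463.2, 475.2 and 456.0 CPM in vehicle and 457.0, 401.6, 410.4 and 356.4 CPM in entinostat at day 10, and the groups overlapped. At day 17 it had 337.7, 441.8, 453.7 and 450.6 CPM in vehicle and 457.6, 420.3, 834.4 and 473.2 CPM in entinostat, where 834.4 came from the shallowest library and 337.7 from the deepest.

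**Figure D3:**
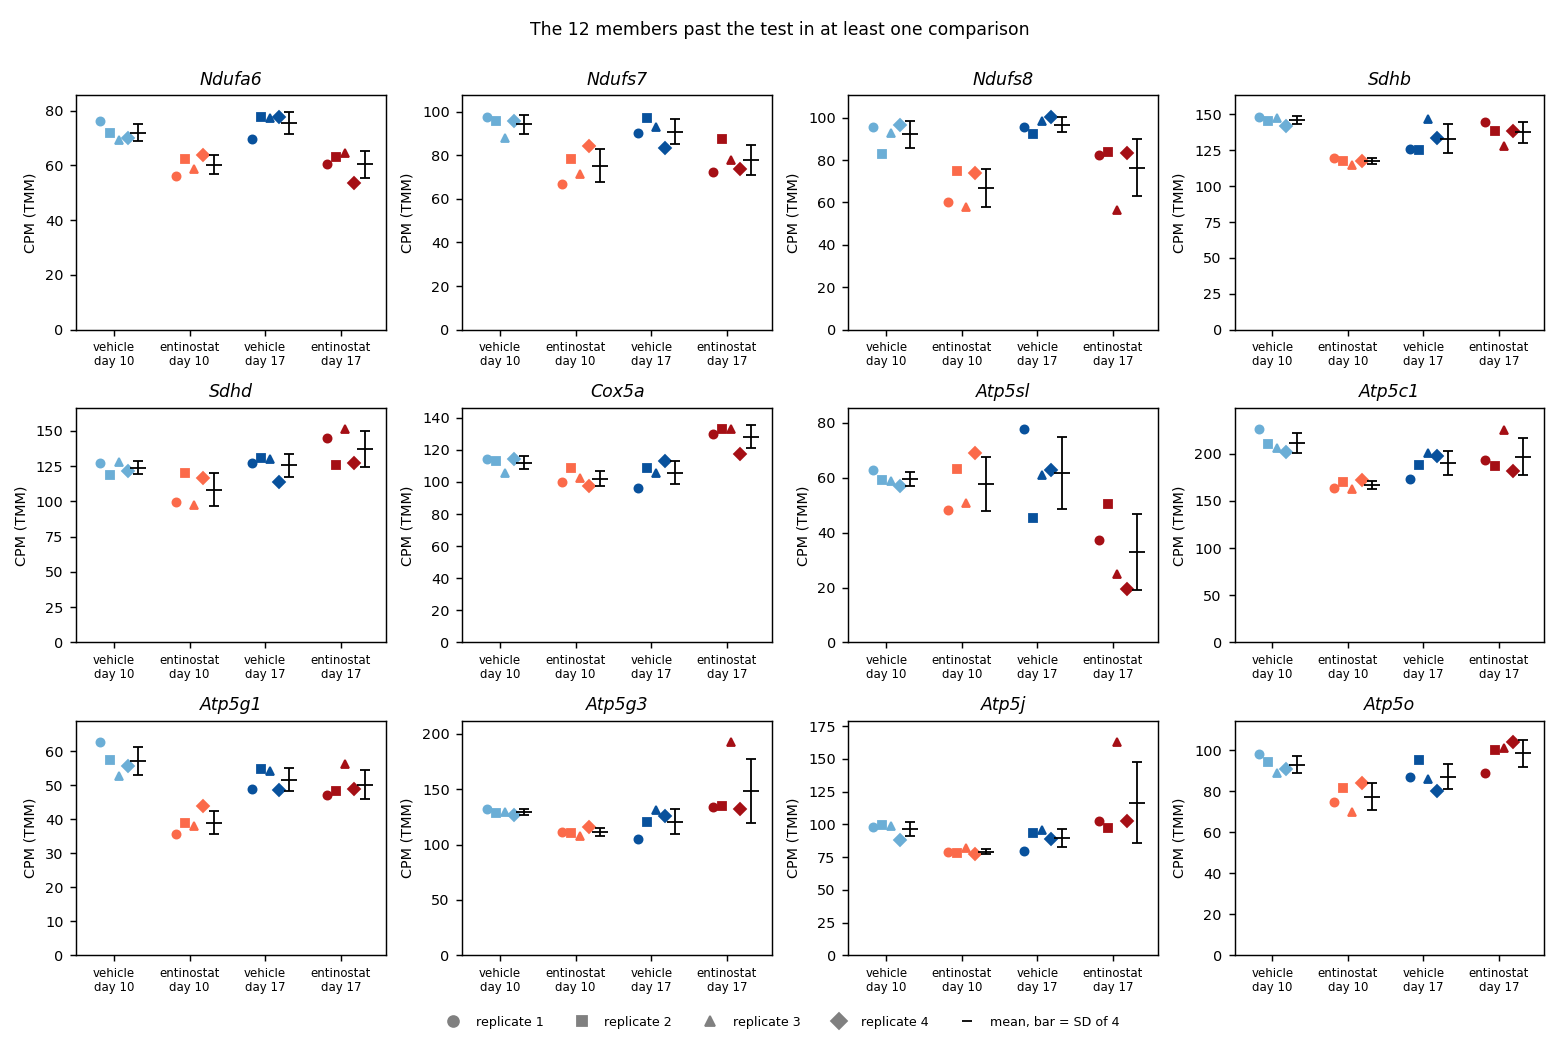
CPM (y axis, TMM scaled, starting at 0) of the 12 members that passed the test in at least 1 comparison, one point per library, with the mean and SD of each group of 4. Sdhb and Atp5c1 are separated between vehicle and entinostat at day 10, and for Atp5j and Atp5g3 the highest point of all is the shallowest library.

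The effect of entinostat was more positive at day 17 than at day 10 for 74 of 88 members, with a median difference of 0.23 on the log2 scale, against -0.16 for all genes of at least 5 CPM. No member passed the test of this difference in edgeR, where 0.471% of all genes tested did. At an unadjusted p under 0.05 there were 21 members with a higher and 1 with a lower effect at day 17. Of the 17414 genes tested, 794 were higher and 1476 lower at that level. DESeq2 called 5 members higher and 0 lower, where it called 329 genes higher and 234 lower of 17398. The median was 0.22 for complexes I and II, 0.25 for complex III, 0.35 for complex IV and 0.37 for complex V, and over all alternatives and left-out libraries the median of the members stayed between 0.21 and 0.31. The member with the smallest p was Atp5j at 0.62 ± 0.19 (adjusted p = 0.146), followed by Cox5a at 0.41 ± 0.12 (adjusted p = 0.155) and Sdhb at 0.37 ± 0.12 (adjusted p = 0.166). In complexes I and III it was Ndufa10 (0.46 ± 0.19, adjusted p = 0.296) and Uqcrfs1 (0.33 ± 0.13, adjusted p = 0.307). The effects at the 2 days share no libraries, but the change over time with entinostat shares libraries with both.

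The share of complex V among the members' CPM was highest, at 33.2%, in the shallowest library and lowest, at 24.3%, in the deepest, and lay between these in the other 14. Group means were 27.5% ± 0.612 (SD, n = 4) in vehicle day 10, 27.2% ± 1.71 in entinostat day 10, 26.7% ± 1.59 in vehicle day 17 and 29.1% ± 2.80 in entinostat day 17.

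**Figure D4:**
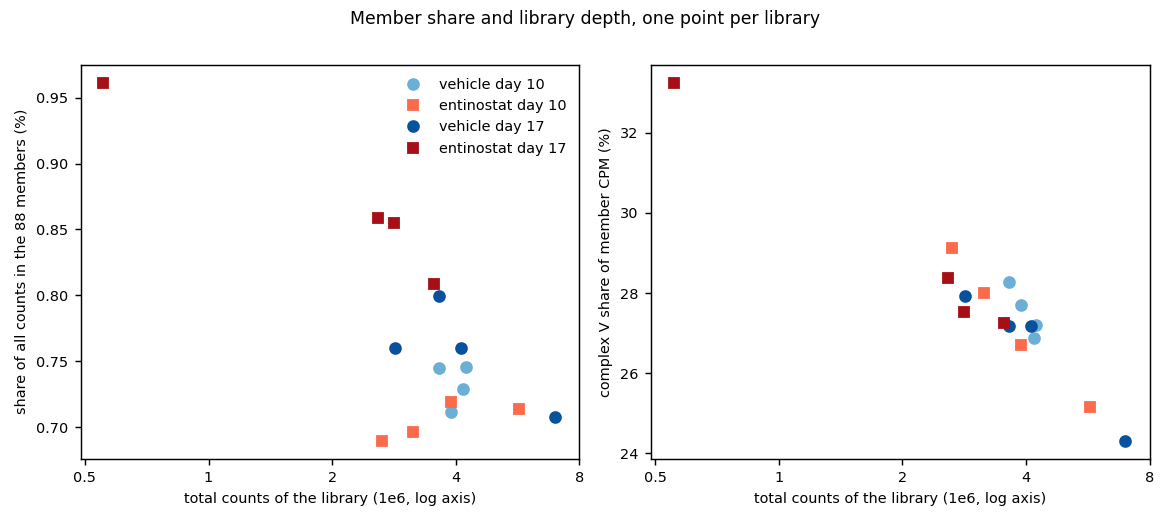
Share of all counts that fell in the 88 members (left) and share of complex V among the members' CPM (right), in percent, against the total counts of each library on a log axis. The shallowest library has the highest value in both panels (0.961% and 33.2%).

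Other mitochondrial genes were read from lists of related function. Of 16 genes of the tricarboxylic acid cycle and pyruvate dehydrogenase, 4 fell at day 10 and none rose, where 6.93% of all genes tested fell. Among them were Pdha1 and Pdhb, subunits of pyruvate dehydrogenase (adjusted p = 0.0175 and 0.0227), and Dlst, of the oxoglutarate dehydrogenase complex (adjusted p = 0.0456). The list's median was -0.22 with all 16 below 0, and -0.06 with library size alone. At day 17 Dlst fell as well (-0.54 ± 0.13, adjusted p = 0.00617). Of 76 genes of the mitochondrial ribosome, which makes the subunits encoded in the organelle, 4 fell at day 10 (Mrps6, Mrpl22, Mrpl50 and Mrps7), a share below the 6.93% of all genes tested, and none passed the test in the other comparisons. Their median at day 10 was -0.20, and -0.04 with library size alone.

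Of 15 regulators of mitochondrial biogenesis, Esrra, a nuclear receptor that acts on respiratory genes, and Pprc1, a coactivator, fell at day 10. At day 17, 4 fell with entinostat and none rose, where 13% of all genes tested fell and 5.29% rose. They were Polg (-0.69 ± 0.13, adjusted p = 0.00163) and Polg2, subunits of the mitochondrial DNA polymerase, Polrmt, the mitochondrial RNA polymerase (-0.82 ± 0.16, adjusted p = 0.00209), and Esrra (-0.82 ± 0.21, adjusted p = 0.0111). Over time with entinostat, Polg, Polrmt and Gabpb1, a subunit of the ETS factor GABP, were lower. Among 8 carriers and subunits outside the symbol rule, Etfb, of the electron transfer flavoprotein (0.66 ± 0.14, adjusted p = 0.00464), and Coq7, of ubiquinone synthesis (1.02 ± 0.29, adjusted p = 0.0241), rose over time with entinostat. Of 32 further assembly factors, Cox17, the copper chaperone of complex IV, rose at day 17 against vehicle (0.37 ± 0.11, adjusted p = 0.0330), and Cox14 and Atpaf1 fell.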

How the data were processed

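Deposited values were whole-number counts per gene from the authors, not scaled between libraries. The submitters' processing notes name STAR and mm10. Not given in the sources used here: the counting program, the annotation and the handling of duplicates. Per the labels, cDNA came from the SMART-seq v4 kit and libraries from Nextera XT, which mark neither strand nor molecules.

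Members, lists and tests were chosen with earlier results of these data known. Genes were kept by filterByExpr at a minimum count of 10 (17414 of 24028), scaled by TMM and tested in R 4.3.3 with edgeR 4.0.16 (quasi-likelihood, all 16 libraries, 12 residual degrees of freedom, adjusted p under 0.05 over all genes). Alternatives used DESeq2 1.42.0, limma 3.58.1 (voom with sample quality weights, or with cyclic loess), other scalings, filters, blocks and covariates, and left out each library in turn. On simulated data the test made few false calls. An initial bar on recovery was not met and was replaced by checks of sign, bias and false calls. Recovery of changes as small as those of most members was not tested, so low counts of called members carry little weight. Members named were those called, up to 4 per complex and comparison, and otherwise the one of smallest p per complex, with a fixed set of core subunits (some genes are not reported here) and the 3 genes on either side of 5 CPM.

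Chosen after values were seen: 2 alternatives (total counts as a covariate, only genes of at least 5 CPM), the placing of Ndufa4 in complex IV and of Ndufaf, Sdhaf, Atp5s and Atp5sl as assembly factors, the median length of GENCODE M21 principal transcripts in place of 2 earlier length rules, the 3 motifs and the promoters printed, the c subunit shares, and the gene set of the pairing check.

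Totals ran from 554593 to 6975904 counts, which limits precision most in the shallowest library. At day 10, vehicle and entinostat libraries of equal number had weakly correlated deviations (0.231, 0.120, 0.175 and 0.118). Vehicle replicate 2 matched best with entinostat replicate 4. The labels state no pairing, and the fit reported used none, so its p-values ignore any pairing. With a replicate block within each day, 0 members were called lower at day 10, against 5 in the fit reported. Libraries of a group differed by more than counting error (chi-square at least 2.96 per degree of freedom).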

Additional observations from a re-analysis of the deposited data

Results flagged for a closer look

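In groups of 4 libraries, a library was singled out when its gap to the nearest other exceeded Dixon's critical share of the range. Of 112 groups examined over members and summed levels, 9 had such a library (8.04%), and chance gives about 1 in 20. The shallowest library, entinostat day 17 replicate 3, gave 5 of them. Its mean log2 CPM was 6.73 for complex IV (others 6.48 to 6.52) and 6.98 for complex V (others 6.69 to 6.69). It had 192.4 CPM of Atp5g3 (others 132.6 to 134.9), 162.6 CPM of Atp5j (others 97.5 to 102.9) and 56.4 CPM of Ndufs8 (others 82.3 to 83.7). The deepest library, vehicle day 17 replicate 1, gave 3, with 85.0 CPM of Cox7a2l (others 71.7 to 73.1), 69.5 CPM of Ndufa6 (others 77.5 to 77.9) and 75.1 CPM of Uqcrh (others 81.3 to 82.3). Vehicle day 10 replicate 4 had 88.4 CPM of Atp5j (others 98.1 to 99.8).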

How the results depend on the processing

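None of the 14 calls of members was kept in every alternative; each was lost in 2 to 26 of 28 or 29. Medians and counts below are of the 88 members.

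Entinostat against vehicle at day 10: 5 members were called lower in the fit reported, 35 with limma-voom and sample quality weights together (weighted voom), 15 with log2 total counts as a covariate, 3 with only genes of at least 5 CPM, 2 with only the groups compared, 1 at a minimum count of 50, and 0 with library size alone, cyclic loess (in limma-voom without such weights) or a replicate block within each day. The median of -0.21 became -0.0524 with library size alone, -0.0303 with cyclic loess, -0.0901 at a minimum count of 50 and -0.12 with only the groups compared. All genes called lower numbered 1206 in the fit reported, 3170 with weighted voom and 1689 with log2 total counts as a covariate. They numbered 912 with only genes of at least 5 CPM, 754 with only the groups compared and 620 at a minimum count of 50. With library size alone, cyclic loess and the replicate block within each day they numbered 504, 450 and 742. Leaving out 1 library gave 0 to 9 members called.

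At day 17, 1 member was called higher in the fit reported, 7 with DESeq2 and with only genes of at least 5 CPM, 6 with RLE, 11 with library size alone, 23 with cyclic loess, 12 at a minimum count of 50, and 0 with no filter, only the groups compared, either replicate block or either covariate. Called lower were 2, against 4 with weighted voom, 1 with DESeq2, RLE, library size alone, a minimum count of 50, either replicate block or only genes of at least 5 CPM, and 0 with cyclic loess, only the groups compared or total counts as a covariate. The median of 0.03 became 0.13 with DESeq2 and with only genes of at least 5 CPM (0.132), 0.14 with RLE, 0.18 with library size alone, 0.25 with cyclic loess, 0.20 at a minimum count of 50 and -0.016 with no filter. All genes called higher numbered 922 in the fit reported, 1745 with DESeq2, 922 with only genes of at least 5 CPM and 1171 with RLE. They were 1356 with library size alone, 1193 with cyclic loess and 1023 at a minimum count of 50. All genes called lower numbered 2268 in the fit reported, 2780 with weighted voom, 1913 with DESeq2 and 1172 with cyclic loess. Leaving out 1 library gave 0 to 3 members called higher and 0 to 2 lower.

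In vehicle over time, 1 member was called lower with weighted voom and 2 with total counts as a covariate, and leaving out 1 library gave 0 to 1. The median of -0.07 reversed to 0.0634 with library size alone, 0.041 with cyclic loess and 0.0069 at a minimum count of 50. With cyclic loess Sdha (0.13) and Atp5c1 (0.0788) also reversed. All genes called lower numbered 632 in the fit reported, 1488 with weighted voom and 1288 with total counts as a covariate.

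With entinostat over time, 5 members were called higher, against 16 with DESeq2, 23 with weighted voom, 15 with RLE, 27 with library size alone, 33 with cyclic loess, 1 with no filter, 36 at a minimum count of 50, 3 with the replicate block and 20 with only genes of at least 5 CPM. The 1 called lower became 0 with library size alone, cyclic loess, only the groups compared, the replicate block or either covariate. The median of 0.17 became 0.30 with library size alone, 0.34 with cyclic loess, 0.31 at a minimum count of 50 and 0.25 with only genes of at least 5 CPM. All genes called higher numbered 568 in the fit reported, 1107 with DESeq2, 1668 with weighted voom, 731 with RLE and 913 with library size alone. They were 970 with cyclic loess, 492 with no filter and 907 at a minimum count of 50. With the replicate block they were 495, and with only genes of at least 5 CPM 762. Leaving out 1 library gave 1 to 6 members called higher and 0 to 1 lower.

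For the difference of effects, DESeq2 called 5 members higher against 0. Over all genes it called 329 higher, against 38 in the fit reported. At day 10, 3 of 4 vehicle libraries matched best with the entinostat library of their own number, and the fit reported used no pairing. Depth limits the shallowest library most, where the median member had 45 counts.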
